A study of Mus musculus with 13 samples.

Results

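Liver and kidney of mice that developed from fresh, never frozen oocytes were compared across all genes. They make up 6 of the 13 libraries of the series, 3 livers and 3 kidneys, and were chosen by the tissue and treatment labels alone. All 6 came from CD-1 (ICR) mice, an outbred stock, killed at 8 weeks of age. Every mouse, also in the fresh group, came from fertilisation in vitro, embryo culture in KSOM medium and transfer of cleaved embryos into pseudopregnant females. The other 7 libraries, 3 livers and 4 kidneys, came from mice of the same stock and age whose oocytes had been vitrified by the Cryotop method and thawed before fertilisation, and serve below as a separate set of organs. The labels call the samples biological replicates and give no sex, litter or pairing of a liver with a kidney, so a p-value covers no more than the variation among these particular samples.

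The liver and the kidney are both epithelial organs that handle metabolites for the whole body, by different means. Hepatocytes secrete most proteins of blood plasma, turn ammonia into urea, make bile acids and modify foreign compounds. The kidney filters plasma in the glomerulus, and a chain of tubule segments with their own carriers and channels takes back water, salts, sugars and amino acids. Both organs make glucose and burn fatty acids, and both use transcription factors of the HNF4 family.

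Total counts per library lay between 16298569 and 19824086, and 13729 of 22298 genes passed the default edgeR filter on low counts. Levels are normalised CPM, counts scaled to a library of fixed size after TMM correction, and differences are log2 of liver over kidney ± SE. The 10 most abundant genes took 24.3% to 29.7% of the counts in livers and 19.7% to 21.0% in kidneys. TMM factors of 0.71 to 0.74 in livers and 1.31 to 1.55 in kidneys put the median difference of all tested genes at -0.01, whereas scaling to library totals alone put it at -0.96. Every direction below is therefore relative to the median gene. The 4 Y-linked genes Ddx3y, Uty, Kdm5d and Eif2s3y summed to 208 and 221 normalised CPM in livers 1 and 2 and to 135 and 114 in kidneys 1 and 2, but to 1.10 in liver 3 and 0.81 in kidney 3. Liver 3 and kidney 3 thus stood apart, and values without both are given for the counts over all genes. They are also given for genes of known sex bias named with a log2 difference and for named genes whose call changes. Without both, Ddx3y, Kdm5d and Eif2s3y went from not called to called higher in liver (edgeR adjusted p up to 0.0101).

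The defining markers of each organ were high in every library of that label. Values run in the order of libraries 1 to 3. Alb, which encodes serum albumin, lay at 70806, 75791 and 208799 in livers and 112, 97 and 198 in kidneys. Its difference was 9.77 ± 0.82, edgeR adjusted p = 5.05e-05. Apoa1, the main protein of high-density lipoprotein, lay at 6929, 7568 and 4106 in livers and 7.96, 6.28 and 20.5 in kidneys. Its difference was 9.06 ± 0.71, edgeR adjusted p = 3.65e-05. The groups did not overlap for either gene, liver 3 held the most Alb and the least Apoa1, and kidney 3 held the most of both among the kidneys. Slc34a1, the sodium-phosphate cotransporter of the proximal tubule, lay at 10.5, 11.5 and 10.1 in livers and 2994, 3533 and 2076 in kidneys. Its difference was -8.06 ± 0.39, edgeR adjusted p = 4.89e-06. Kap, an androgen-regulated protein of the mouse proximal tubule, lay at 75.4, 71.4 and 76.5 in livers and 20115, 20256 and 6274 in kidneys. Its difference was -7.71 ± 0.63, edgeR adjusted p = 4.43e-05, and -8.09, edgeR adjusted p = 1.53e-06 without liver 3 and kidney 3. Again the groups did not overlap, and kidney 3 was the lowest of the kidneys for both genes.

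**Figure D1:**
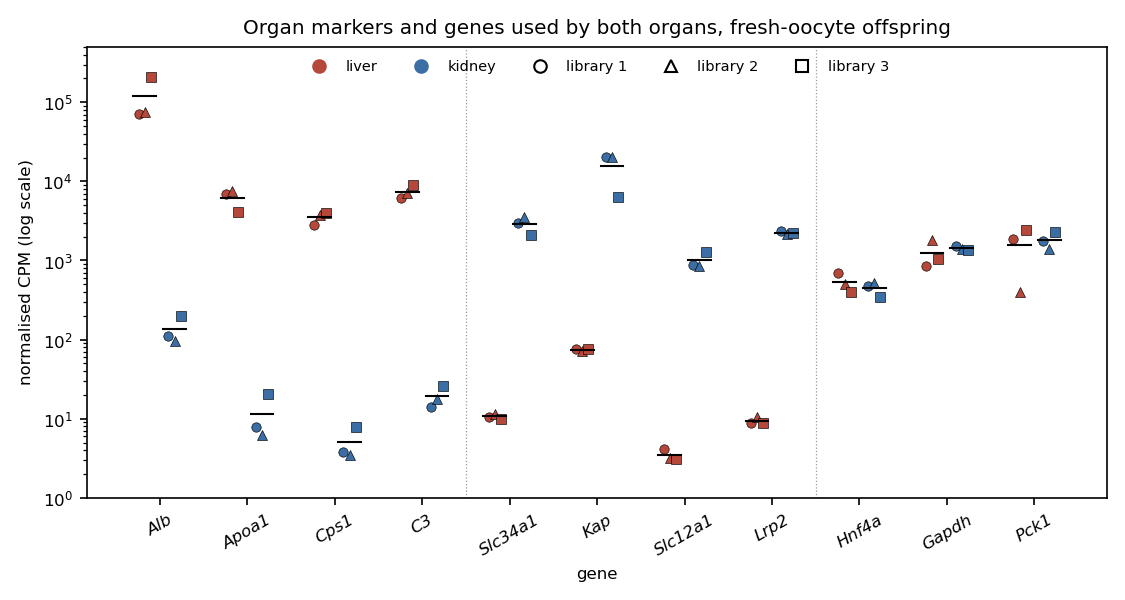
Normalised CPM on a log scale for 11 genes (x axis) in each of the 3 livers (red) and 3 kidneys (blue), with the symbol giving the library number and a bar the group mean. The 4 liver genes and the 4 kidney genes separate in all 6 libraries, and the groups overlap for Hnf4a, Gapdh and Pck1.

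The promoters of these 4 markers are shown because each gene sits at an extreme of the organ contrast. Each run is the RefSeq sequence of build GRCm38.p6 from 250 bases before to 50 after the first listed start, read 5′ to 3′ on the strand of the gene. Capitals mark CAAAGTCCA, the core of an HNF4 site, TTGCGCAA, a palindrome bound by C/EBP factors, and TATAAA, each searched on both strands.
Alb, chr5:90460620-90460919, plus strand: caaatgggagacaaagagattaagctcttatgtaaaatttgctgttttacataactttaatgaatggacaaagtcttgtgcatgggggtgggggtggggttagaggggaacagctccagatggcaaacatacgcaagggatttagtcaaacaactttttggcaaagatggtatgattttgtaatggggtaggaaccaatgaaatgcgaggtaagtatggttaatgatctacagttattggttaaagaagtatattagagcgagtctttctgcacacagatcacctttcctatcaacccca
Apoa1, chr9:46228380-46228679, plus strand: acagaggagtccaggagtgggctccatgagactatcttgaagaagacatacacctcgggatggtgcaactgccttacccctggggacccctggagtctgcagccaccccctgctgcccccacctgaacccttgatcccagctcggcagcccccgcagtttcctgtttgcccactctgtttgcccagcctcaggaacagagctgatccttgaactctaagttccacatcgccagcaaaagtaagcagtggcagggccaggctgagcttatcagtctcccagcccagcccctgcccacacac
Slc34a1, chr13:55399398-55399697, plus strand: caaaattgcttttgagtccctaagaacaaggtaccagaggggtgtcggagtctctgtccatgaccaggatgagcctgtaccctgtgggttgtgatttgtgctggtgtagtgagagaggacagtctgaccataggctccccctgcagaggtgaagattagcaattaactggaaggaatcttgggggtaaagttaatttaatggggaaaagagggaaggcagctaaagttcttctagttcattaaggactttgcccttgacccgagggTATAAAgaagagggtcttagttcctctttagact
Kap, chr6:133853618-133853917, minus strand: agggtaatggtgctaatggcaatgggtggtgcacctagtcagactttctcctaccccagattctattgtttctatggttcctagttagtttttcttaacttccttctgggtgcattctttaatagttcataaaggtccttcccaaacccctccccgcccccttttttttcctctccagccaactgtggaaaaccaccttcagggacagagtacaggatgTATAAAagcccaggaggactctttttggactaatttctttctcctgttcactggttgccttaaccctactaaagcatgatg
The Slc34a1 and Kap windows each held TATAAA once, and none of the 3 words was found in the Alb and Apoa1 windows. Of 27025 mouse promoters of the same length, 0.477% held CAAAGTCCA, 0.185% held TTGCGCAA and 14.2% held TATAAA. These matches are letters in a window, not measured sites.

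Of the 13729 genes tested, 3255 (23.7%) were higher in liver and 3678 (26.8%) were higher in kidney at an edgeR adjusted p under 0.05, which is what "called" means below. Called genes with a difference of at least 4-fold numbered 1153 in the direction of liver (8.4% of genes tested) and 1947 in that of kidney (14.2%). Without liver 3 and kidney 3 the calls were 3383 and 3841. With library totals alone 1300 and 8810 genes were called, so that the share of calls higher in liver went from 46.9% to 12.9%. The 3 livers and the 3 kidneys did not overlap in 8436 genes (61.4% of those tested).

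**Figure D2:**
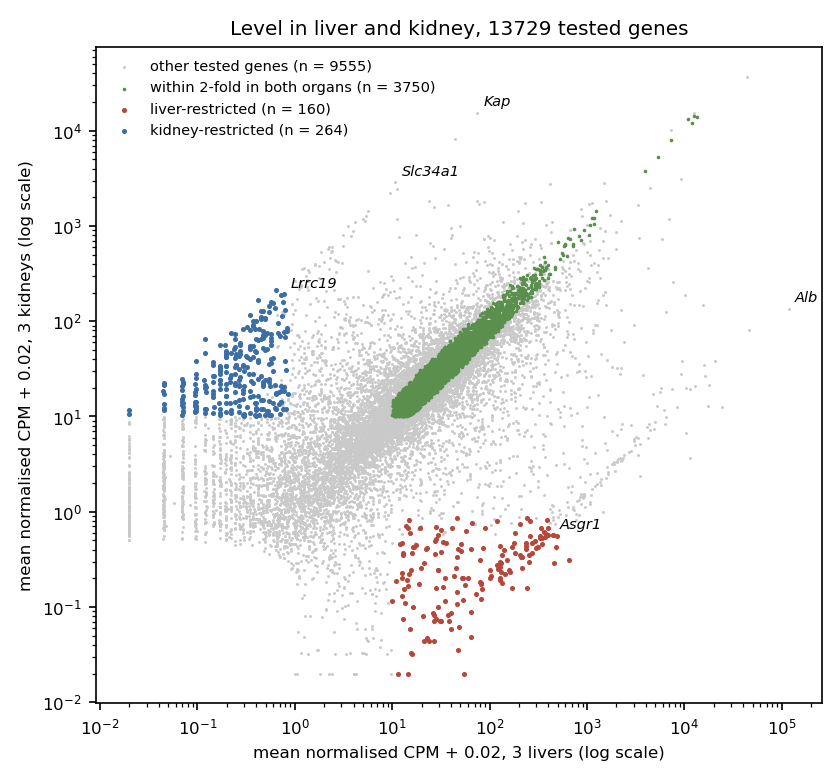
Mean level of each tested gene in the 3 livers (x axis) and 3 kidneys (y axis), in normalised CPM plus 0.02 on log scales. Red and blue points are the 160 liver-restricted and 264 kidney-restricted genes, green points the 3750 genes within 2-fold in both organs, and grey points all others.

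Genes for proteins that the liver secretes into blood separated the organs in nearly every case. All 15 tested apolipoprotein genes, all 23 genes of coagulation and fibrinolysis, all 19 complement genes and 36 of 37 other plasma proteins were called higher in liver, against 23.7% of all genes tested. Counts are over list members that passed the filter, which a gene high in one organ can pass through that organ alone. Their median differences were 8.75, 8.21, 7.32 and 9.08, against -0.01 over all tested genes. The exception was A1bg, which was high in liver 3 alone. The plasma proteins summed to between 213257 and 353209 normalised CPM in a liver and to at most 1021 in a kidney. Trf, the iron carrier transferrin, lay at 17791, 20663 and 22692 in livers and 27.8, 28 and 57.6 in kidneys (log2 difference 9.07 ± 0.57, edgeR adjusted p = 1.18e-05). Apoe, which carries lipoprotein remnants to their receptors, lay at 15222, 14514 and 16899 in livers and 115, 103 and 222 in kidneys (log2 difference 6.73 ± 0.50, edgeR adjusted p = 2.65e-05). Fgb, the beta chain of fibrinogen, lay at 3604, 4836 and 4478 in livers and 6.06, 5.87 and 12.8 in kidneys (log2 difference 9.03 ± 0.54, edgeR adjusted p = 9.82e-06). All 3 genes separated the organs by more than the whole spread within either. C3, the central protein of complement, lay at 6128, 7041 and 9005 in livers and 14.1, 17.6 and 26.1 in kidneys (log2 difference 8.58 ± 0.48, edgeR adjusted p = 7.69e-06). Apob, the core protein of very low-density lipoprotein, differed less, at 9929.8, 9757 and 10421 in livers and 95.1, 286 and 179.6 in kidneys (log2 difference 5.75 ± 0.52, edgeR adjusted p = 7.56e-05). Reads of the near-identical genes Serpina1a and Serpina1c, and of the major urinary protein genes, may have been divided among copies, so single members of those families are uncertain. Trf is uncertain too, since its transcripts share 59.4% of their 50-base words with another annotated gene. Here as throughout, more cells of a type and more RNA per cell cannot be told apart.

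Enzymes of nitrogen and amino acid handling were higher in liver in 28 of 33 tested genes, against 23.7% of all genes tested. None was called higher in kidney, and the median was 2.43. Cps1, which starts the urea cycle, lay at 2773, 3814 and 4019.8 in livers and 3.82, 3.46 and 7.92 in kidneys (log2 difference 9.44 ± 0.56, edgeR adjusted p = 9.38e-06). Tdo2, which opens the tryptophan ring, lay at 2224, 2971 and 1754 in livers and 3.75, 1.15 and 6.16 in kidneys (log2 difference 9.29 ± 0.77, edgeR adjusted p = 4.68e-05). Both were below 10 in all kidneys, with kidney 3 the highest. Ass1, the urea-cycle enzyme that the kidney also uses to make arginine, was not called, at a mean of 1728 in liver and 1297 in kidney. Asns, Got1, Oat and Prodh were the other members not called.

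Genes of bile acid synthesis and transport were mostly higher in liver, with 2 called the other way. Of 23 tested genes 16 were called higher in liver and 2 higher in kidney, against 23.7% and 26.8% of all genes tested. Abcb11, the canalicular pump that exports bile salts, lay at 503, 763 and 1067 in livers and 0.734, 0.647 and 1.41 in kidneys (log2 difference 9.69 ± 0.55, edgeR adjusted p = 8.04e-06). Slc10a1, the sodium-dependent bile salt importer of the hepatocyte, lay at 729, 1056 and 1047 in livers and 2.12, 1.15 and 2.82 in kidneys (log2 difference 8.85 ± 0.48, edgeR adjusted p = 6.82e-06). Slc51a and Slc51b, which together form the basolateral organic solute transporter, went the other way. Slc51a lay at 0.806, 0.659 and 0.958 in livers and 95.4, 116 and 46.1 in kidneys (log2 difference -6.73 ± 0.44, edgeR adjusted p = 1.42e-05). Slc51b lay at 0.154, 0.601 and 0.441 in livers and 14.1, 14.4 and 20.9 in kidneys (log2 difference -5.34 ± 0.40, edgeR adjusted p = 2.85e-05). Both subunits were thus below 1 in every liver. Slc10a2, the bile acid importer of ileum and tubule, was not called, at 19.1, 56.2 and 23.4 in livers and 46.3, 33.1 and 94 in kidneys.

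Among cytochrome P450 genes of families 1 to 4, 18 of 27 tested were higher in liver, against 23.7% of all genes tested. Their median was 7.19. Cyp3a11, a major drug-oxidising enzyme, lay at 2968, 4927 and 2169 in livers and 4.52, 4.62 and 8.66 in kidneys (log2 difference 9.14 ± 0.59, edgeR adjusted p = 1.38e-05). Cyp2e1, which oxidises ethanol, was not called over 6 libraries at 8782, 5559 and 6481 in livers and 1671, 1863 and 49.9 in kidneys (log2 difference 2.54 ± 1.07, edgeR adjusted p = 0.0859), and was called without liver 3 and kidney 3 (log2 difference 2.04, edgeR adjusted p = 0.001). Kidney 3 was far below the other kidneys. Cyp4b1 was the one member called higher in kidney, at 21.7, 24.3 and 25.9 in livers and 2597, 2800.2 and 95.1 in kidneys (log2 difference -6.26 ± 1.21, edgeR adjusted p = 0.00455). Cyp2j5 and Cyp4a12a, both known from liver and kidney of mice, were not called, at liver and kidney means of 1115 against 1205 and of 1003 against 1016. These means include liver 3 and kidney 3 and hide the spread among libraries. The lack of a call therefore does not show like levels. Conjugating enzymes were divided, with 22 of 38 higher in liver and 7 higher in kidney, against 23.7% and 26.8% of all genes tested. The share higher in kidney was thus below that of all genes. These counts were 18 and 11 with library totals alone and 22 and 11 without liver 3 and kidney 3. Sult2a8, a sulphotransferase, lay at 1637, 1539 and 1466 in livers and 1.7, 1.8 and 3.2 in kidneys (log2 difference 9.43 ± 0.43, edgeR adjusted p = 4.18e-06). Of the 7 kidney genes, Ugt8a, which adds galactose to ceramide, had means of 0.726 in liver and 112 in kidney, and Nat8, an N-acetyltransferase that completes mercapturic acids, had 7.63 and 102.

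Fat and sugar pathways differed in part of their enzymes. Of 34 tested genes of fatty acid and cholesterol synthesis 20 were higher in liver and Scd2 alone was higher in kidney. Over all genes tested the shares were 23.7% and 26.8%. The counts for synthesis were 14 and 6 with library totals alone and 16 and 3 without liver 3 and kidney 3. Thrsp, which promotes lipogenesis, lay at 190.2, 1071 and 679 in livers and 2.47, 2.36 and 3.66 in kidneys (log2 difference 7.83 ± 0.75, edgeR adjusted p = 0.000109). Scd1, the main stearoyl-CoA desaturase of liver, varied widely among livers, at 299, 4041 and 8197 in livers and 75, 112 and 904 in kidneys, and was not called, except with the replicate number as a block (edgeR adjusted p = 0.0111). Fatty acid oxidation had 15 of 31 genes higher in liver and 3 higher in kidney, but 4 and 10 with library totals alone, where its median went from 0.70 to -0.27. Oxct1, which uses ketone bodies and is known to be lacking from hepatocytes, lay at 10.6, 10.4 and 12.1 in livers and 1281, 1164 and 1151 in kidneys (log2 difference -6.76 ± 0.28, edgeR adjusted p = 2.76e-06). The groups did not overlap for this gene. Acadm, the medium-chain acyl-CoA dehydrogenase, was also called higher in kidney, with means of 441 in liver and 1113 in kidney.

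**Figure D3:**
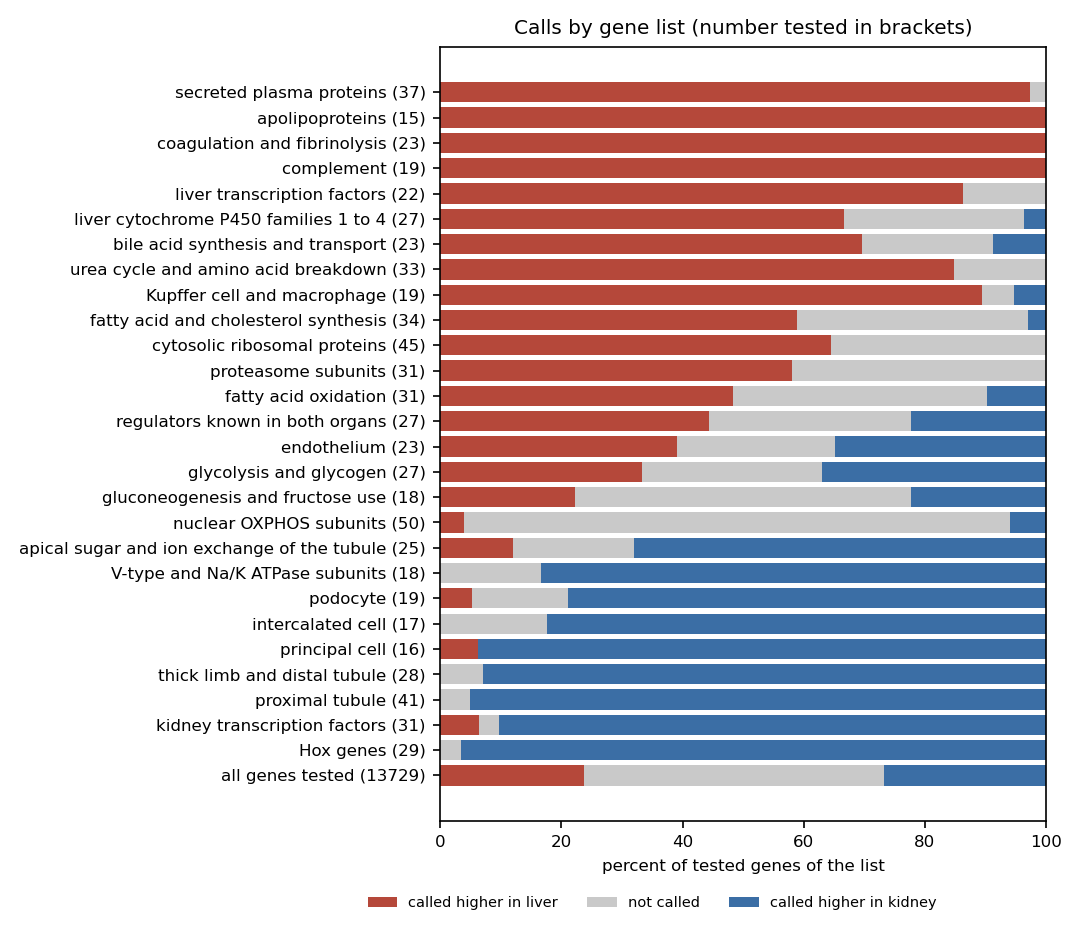
Share of the tested genes of 27 gene lists, and of all genes tested (bottom bar), that were called higher in liver (red), called higher in kidney (blue) or not called (grey). Number of tested genes in brackets. Blood-borne proteins are nearly all red, nephron segments and Hox genes nearly all blue, and nuclear OXPHOS subunits nearly all grey.

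Transcription factors known for liver were called higher there in 19 of 22 cases, against 23.7% of all genes tested, and none was called higher in kidney. Creb3l3, a membrane-bound factor of fasting and lipid genes, lay at 239.7, 204 and 267 in livers and 0.309, 0.416 and 0.528 in kidneys (log2 difference 9.12 ± 0.30, edgeR adjusted p = 2.15e-06). Nr1i3, the xenobiotic receptor CAR, lay at 323, 119 and 334 in livers and 0.389, 0.462 and 0.754 in kidneys (log2 difference 8.90 ± 0.58, edgeR adjusted p = 1.44e-05). Foxa2, a forkhead factor of endoderm, lay at 44.7, 27.2 and 22.7 in livers and 0.155, 0 and 0 in kidneys (log2 difference 9.06 ± 0.69, edgeR adjusted p = 3.39e-05). In each case all kidneys were below 1. Cebpa, which also has kidney transcripts, lay at 240.2, 243 and 209 in livers and 9.12, 7.76 and 19 in kidneys (log2 difference 4.27 ± 0.38, edgeR adjusted p = 6.87e-05). Nr1h4 and Nr2f6, both on the liver list, were not called.

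Genes of the proximal tubule, which reclaims most of the filtrate, were higher in kidney almost throughout. Of 41 tested genes 39 were called higher in kidney and none higher in liver, against 26.8% of all genes tested, and the median was -7.63. Lrp2, the endocytic receptor megalin, lay at 8.79, 10.6 and 8.82 in livers and 2336, 2153 and 2240.4 in kidneys (log2 difference -7.90 ± 0.32, edgeR adjusted p = 2.76e-06). Acsm2, a medium-chain acyl-CoA synthetase, lay at 20.2, 30.2 and 25.9 in livers and 5799.6, 4694 and 802 in kidneys (log2 difference -7.21 ± 0.83, edgeR adjusted p = 0.000276). Without liver 3 and kidney 3 its difference was -7.69, edgeR adjusted p = 4.25e-06. Megalin hardly varied among kidneys, whereas Acsm2 in kidney 3 was far below its level in the other two. Gpx3, the glutathione peroxidase that the proximal tubule secretes into plasma, lay at 43.7, 42.9 and 45.5 in livers and 7261, 9450 and 7867 in kidneys (log2 difference -7.54 ± 0.37, edgeR adjusted p = 5.08e-06).

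Apical carriers of sugars, ions and other solutes were higher in kidney in 17 of 25 tested genes and higher in liver in 3. Over all genes tested these shares were 26.8% and 23.7%. The median of the carriers was -2.64. Slc5a2, the glucose carrier SGLT2, lay at 1.14, 1.05 and 1.16 in livers and 245, 259 and 272 in kidneys (log2 difference -7.83 ± 0.22, edgeR adjusted p = 2.15e-06). Slc6a18, a neutral amino acid carrier, lay at 1.77, 0.601 and 1.32 in livers and 258, 253 and 587 in kidneys (log2 difference -8.21 ± 0.60, edgeR adjusted p = 2.53e-05). Slc5a8, a carrier of lactate and short-chain fatty acids, lay at 1.16, 1.28 and 1.03 in livers and 514, 431 and 110.2 in kidneys (log2 difference -8.24 ± 0.70, edgeR adjusted p = 5.93e-05). Kidney 3 was the highest of the kidneys for Slc6a18 and the lowest for Slc5a8, and none of these genes reached 2 in a liver. The members higher in liver were Slc2a9, a urate carrier, Slc20a2, a phosphate carrier, and Slc6a13, which takes up GABA and taurine. Slc6a13 lay at 161, 153 and 196 in livers and 35.1, 36.6 and 41.3 in kidneys (log2 difference 2.17 ± 0.18, edgeR adjusted p = 4.56e-05).

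Genes of the segments beyond the proximal tubule were also mostly higher in kidney. In the thick ascending limb and distal tubule 26 of 28 genes were higher in kidney, median -7.22, against 26.8% of all genes tested. Umod, which encodes uromodulin, the most abundant protein of normal urine, lay at 10.6, 11.3 and 11.3 in livers and 2179, 1894 and 3277 in kidneys (log2 difference -7.79 ± 0.39, edgeR adjusted p = 5.21e-06). Slc12a1, the furosemide-sensitive NKCC2 cotransporter, lay at 4.09, 3.23 and 3.09 in livers and 876, 854 and 1273 in kidneys (log2 difference -8.17 ± 0.35, edgeR adjusted p = 3.3e-06). For both, kidney 3 was the highest library. Principal cells of the collecting duct were represented by 16 genes, of which 15 were higher in kidney, median -6.45. Aqp2, the vasopressin-regulated water channel, lay at 0.617, 0.451 and 0 in livers and 154, 46.8 and 104 in kidneys (log2 difference -8.15 ± 0.80, edgeR adjusted p = 0.000174). St6gal1, a sialyltransferase, was the exception at 109, 132 and 146 in livers and 8.19, 11.7 and 16.2 in kidneys (log2 difference 3.42 ± 0.28, edgeR adjusted p = 4.45e-05). Of 17 intercalated cell genes 14 were higher in kidney, median -6.07. Atp6v0a4, a kidney subunit of the proton pump, lay at 0.617, 0.826 and 0.746 in livers and 175, 167 and 131 in kidneys (log2 difference -7.75 ± 0.25, edgeR adjusted p = 2.15e-06).

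Podocyte genes were higher in kidney in 15 of 19 cases and higher in liver in 1, against 26.8% and 23.7% of all genes tested. Col4a3, a collagen chain of the glomerular basement membrane, lay at 1.85, 1.95 and 2.87 in livers and 355, 368 and 330 in kidneys (log2 difference -7.30 ± 0.28, edgeR adjusted p = 2.52e-06). The podocyte-defining gene Nphs1, nephrin of the slit diaphragm, had means of 22 in kidney and 0.0746 in liver.

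Hormone and vitamin D genes fell on both sides. All 15 tested genes were called, 10 higher in kidney and 5 higher in liver, against 26.8% and 23.7% of all genes tested. The precursor Agt, angiotensinogen, was higher in liver at 616, 523 and 718 in livers and 19.2, 22.4 and 40.7 in kidneys (log2 difference 4.49 ± 0.37, edgeR adjusted p = 4.5e-05). Ren1 and Ace, which cut angiotensinogen and angiotensin I, were higher in kidney, with kidney means of 60 and 207 against liver means of 3.37 and 2.05. The receptor gene Agtr1a was higher in liver at 60, 48.9 and 80.5 in livers and 20, 27 and 23.7 in kidneys (log2 difference 1.42 ± 0.22, edgeR adjusted p = 0.00123). The gene of the substrate was thus higher in liver and those of both proteases in kidney. Along the vitamin D route the 25-hydroxylase Cyp2r1 was higher in liver at 5.79, 11.9 and 24.9 in livers and 0.0773, 0.0462 and 0.387 in kidneys (log2 difference 6.25 ± 0.82, edgeR adjusted p = 0.000623). The 1-alpha-hydroxylase Cyp27b1 was low in kidney, at 1.74, 2.45 and 1.97, and at 0 in livers 1 and 3 (edgeR adjusted p = 0.000368). Neither hydroxylase overlapped between the organs. Gc, the plasma carrier of vitamin D, was higher in liver at 7947, 8889 and 11161 in livers and 30.3, 15.6 and 70.2 in kidneys (log2 difference 7.91 ± 0.73, edgeR adjusted p = 7.95e-05). The receptor gene Vdr lay at 0.463, 0.676 and 0.514 in livers and 168, 180.4 and 125 in kidneys (log2 difference -8.14 ± 0.28, edgeR adjusted p = 2.15e-06), and Kl, the co-receptor Klotho, lay at 2.01, 2.85 and 2.2 in livers and 512, 671 and 435 in kidneys (log2 difference -7.84 ± 0.33, edgeR adjusted p = 3.04e-06). Carrier and first hydroxylase were thus liver genes, and the second hydroxylase, the receptor and Klotho kidney genes, in all 6 libraries.

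Hox genes, the homeobox factors that set regional identity along the body axis in the embryo, were kidney genes here. Of 29 that passed the filter, 28 were higher in kidney and none higher in liver, against 26.8% and 23.7% of all genes tested. Their median was -6.72. Hoxd8 lay at 0.463, 0.15 and 0.147 in livers and 49.8, 42.9 and 77.9 in kidneys (log2 difference -7.79 ± 0.44, edgeR adjusted p = 8.28e-06). Hoxa10 lay at 0.0771, 0.225 and 0.147 in livers and 35, 33 and 33.3 in kidneys (log2 difference -7.75 ± 0.27, edgeR adjusted p = 2.25e-06). Summed over the list the livers held 5.78 to 7.13 normalised CPM and the kidneys 268 to 358. Of the 37 listed genes 8 did not pass the filter, and most of these had no count in either organ. The genes that passed did so through the kidney, so the count supports nothing beyond the levels. Of the other transcription factors listed for kidney, 28 of 31 were higher in kidney and 2 higher in liver, against the same shares of all genes. Pou3f3, a POU factor of the distal nephron, lay at 0.154, 0.225 and 0.22 in livers and 59.3, 52.8 and 113 in kidneys (log2 difference -8.50 ± 0.47, edgeR adjusted p = 7.05e-06). Tfcp2l1, a factor of distal nephron and collecting duct, lay at 5.55, 6.68 and 6.76 in livers and 209.8, 205 and 253 in kidneys (log2 difference -5.13 ± 0.21, edgeR adjusted p = 2.76e-06). Pax2 and Pax8, the paired-box factors of the nephron lineage, had kidney means of 15.2 and 51.2 and liver means of 0.0501 and 0.325. Nr3c2, the mineralocorticoid receptor, was higher in liver by a small margin (log2 difference 0.89 ± 0.25, edgeR adjusted p = 0.0203), which went to -0.09 with library totals alone. Its call was lost when liver 1, liver 2, kidney 1 or kidney 2 was left out (edgeR adjusted p up to 0.0913).

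Regulators known from both organs fell on both sides. Of 27 genes 12 were higher in liver, 6 higher in kidney and 9 not called, against 23.7% and 26.8% of all genes tested. Their median was 0.40, and with library totals alone 4 and 15 were called. Hnf4a lay at 685, 508 and 395 in livers and 479.5, 517 and 346 in kidneys and was not called (log2 difference 0.24 ± 0.29, edgeR adjusted p = 0.518). With library totals alone it was called higher in kidney at -0.70. Its relative Hnf4g lay at 0.154, 1.05 and 0.294 in livers and 6.88, 5.27 and 5.39 in kidneys (log2 difference -3.53 ± 0.56, edgeR adjusted p = 0.00144). Of these relatives one overlapped between the organs and the other was higher in all kidneys. Ppargc1a and Esrra, which raise mitochondrial genes, had kidney means of 52.9 and 44.1 and liver means of 10.4 and 17.9, and both were called. Rxra, the shared partner of nuclear receptors, was higher in liver at 457, 384 and 297 in livers and 90.3, 90.1 and 51.5 in kidneys (log2 difference 2.29 ± 0.30, edgeR adjusted p = 0.000523).

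Genes at like levels were defined by a 95% interval of the difference within -1 to 1 and a mean of at least 10 in both organs. This held for 3750 of the 13729 genes tested. Of these like-level genes 448 were still called, and with library totals alone 1754 genes met the definition. Of 18 tested genes of glucose production and fructose use, 10 were not called and 4 were called in each direction, a share near that of all genes tested (23.7% and 26.8%). Only 4 of the 18 met the definition of like levels. With library totals alone 3 and 8 were called. Pck1, which commits oxaloacetate to glucose, lay at 1855, 400.2 and 2409 in livers and 1770.4, 1407 and 2260.3 in kidneys (log2 difference -0.22 ± 0.59, edgeR adjusted p = 0.78). Liver 2 was far below the other livers, so this comparison had little precision. Gpt2, an alanine aminotransferase, was higher in liver at 294, 532 and 238 in livers and 35.2, 34.1 and 62.2 in kidneys (log2 difference 3.01 ± 0.40, edgeR adjusted p = 0.00057), as was the hepatocyte glucose carrier Slc2a2 at 338, 638 and 565 in livers and 141, 139 and 94.6 in kidneys (log2 difference 2.04 ± 0.31, edgeR adjusted p = 0.00116).

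Subunits of the respiratory chain lay at like levels in most cases. Of 50 nuclear OXPHOS subunits 44 met the definition of like levels, against 3750 of all 13729 genes tested. Of these 50 subunits 2 were called higher in liver and 3 higher in kidney, against 23.7% and 26.8% of all genes tested. Their median was -0.09, whereas 48 were called higher in kidney with library totals alone. Atp5b, the catalytic subunit of ATP synthase, lay at 883, 1116 and 1112 in livers and 1810.5, 1638 and 1606 in kidneys (log2 difference -0.70 ± 0.25, edgeR adjusted p = 0.0486), and its call was lost with the replicate number as a block (edgeR adjusted p = 0.0965) and when any library other than kidney 3 was left out (edgeR adjusted p up to 0.147). Of the 13 mitochondrially encoded genes tested, 10 met the definition of like levels. As a share of all counts these genes took 8.43% to 10.1% of livers and 17.1% to 19.99% of kidneys, so the 2 scalings put the organs in different relation. Copies of mitochondrial genes in the nuclear genome could share reads with mt-Co2, mt-Co3 and mt-Atp6.

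Genes of protein synthesis and breakdown were higher in liver relative to the median gene, and not on library totals. Of 45 cytosolic ribosomal protein genes 29 were called higher in liver, median 0.67, against 23.7% of all genes tested. None was called with library totals alone, where the median was -0.29. Leaving out 1 library gave 6 calls without kidney 2, 7 without kidney 1, 14 without liver 2 and 16 without liver 3. Of 31 proteasome genes 18 were called higher in liver, median 0.55, whereas 14 were called higher in kidney with library totals alone. This count was 8 without liver 2 and 11 without kidney 1 or kidney 2. Rps6, a protein of the small ribosomal subunit, lay at 319, 315 and 368 in livers and 179, 170.4 and 219 in kidneys (log2 difference 0.82 ± 0.20, edgeR adjusted p = 0.0114). It shares 43.8% of such words with pseudogenes and other genes. Its call was lost without kidney 1 or kidney 2 (edgeR adjusted p up to 0.0626). Ion pumps were higher in kidney under both scalings, with 15 of 18 V-type and Na/K ATPase genes called, and 17 with library totals alone. Fxyd2, a kidney regulator of the sodium pump, lay at 1.85, 2.93 and 2.42 in livers and 517, 505 and 606 in kidneys (log2 difference -7.82 ± 0.31, edgeR adjusted p = 2.69e-06). Peroxisomal genes were higher in liver in 19 of 33 and higher in kidney in 4, against 23.7% and 26.8% of all genes tested. With library totals alone these counts were 9 and 8, and the median went from 1.03 to 0.06. The calls higher in kidney fell to 1 without liver 1, kidney 1 or kidney 2 and to 2 without liver 2. Uox, the urate oxidase that mice keep, lay at 2016, 2491 and 2645 in livers and 2.82, 2.82 and 6.13 in kidneys (log2 difference 9.24 ± 0.52, edgeR adjusted p = 8.04e-06). Dao, the D-amino acid oxidase, lay at 0.926, 0.676 and 0.147 in livers and 173, 178 and 114 in kidneys (log2 difference -8.05 ± 0.51, edgeR adjusted p = 1.24e-05).

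Related genes that serve a like step were set side by side, each pair written with the gene known from liver first. Of 29 pairs of related genes, 16 had the first gene called higher in liver and the second called higher in kidney. The order within the pairs was chosen with results known, so the direction of these counts is no finding. By the authors' FPKM, which are per length and so allow a comparison between genes within a library, the first gene was ahead in all 3 livers and the second in all 3 kidneys in 16 pairs. Pyruvate kinase passed from Pklr to Pkm, of which Pklr stood at 86 ± 55.8 FPKM in liver and 17.1 ± 3.93 in kidney and Pkm at 4.5 ± 0.786 FPKM in liver and 79.7 ± 47.8 in kidney. S-adenosylmethionine synthesis passed from Mat1a, at 493 ± 165 FPKM in liver and 1.48 ± 0.794 in kidney, to Mat2a, at 24.2 ± 0.404 FPKM in liver and 184 ± 26.6 in kidney. In both pairs the order within the library turned over between the organs.

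**Figure D4:**
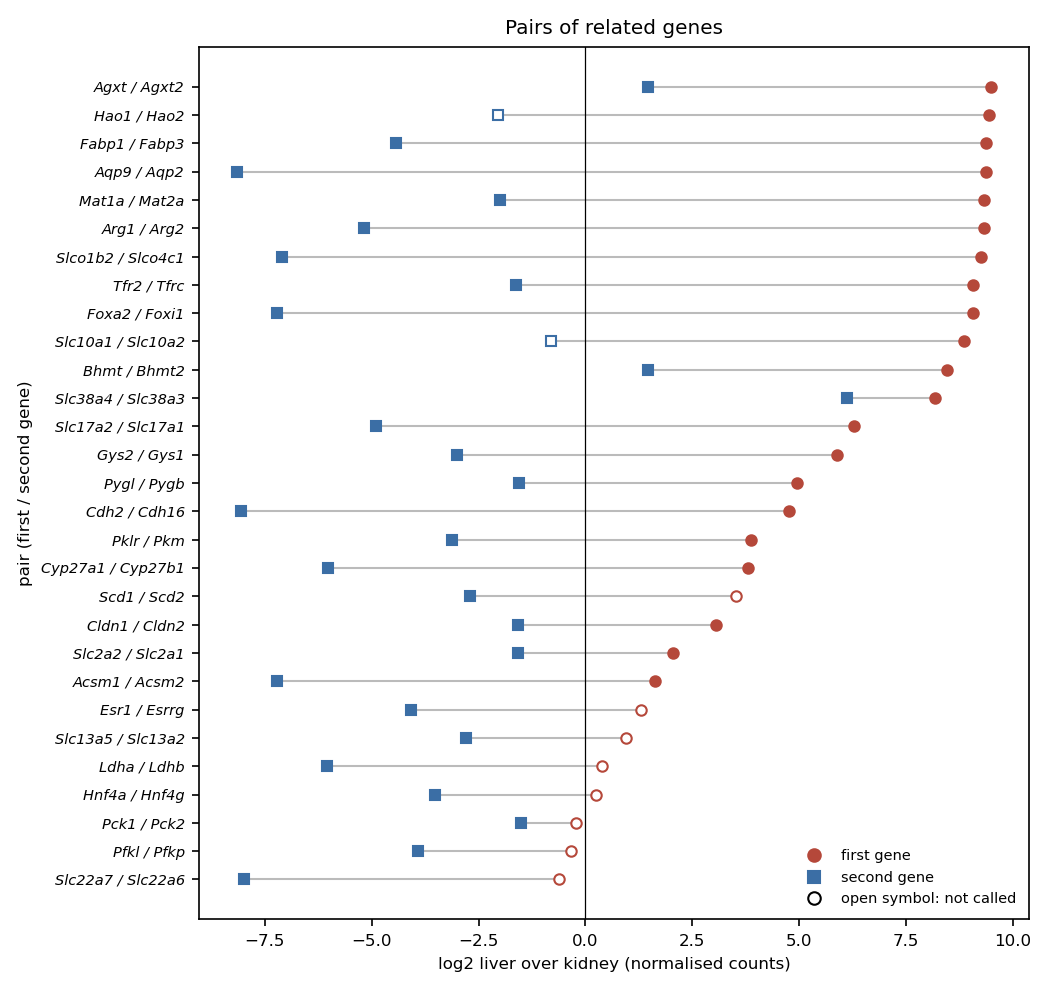
Log2 difference of liver over kidney for the first (red circles) and second gene (blue squares) of 29 pairs of related genes, with open symbols for genes not called. The pairs were ordered with results known, and 16 pairs have called genes on opposite sides of 0.

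In other pairs the first gene was not called and the second was higher in kidney. Ldha lay at 492, 437 and 471 in livers and 443, 370.4 and 254 in kidneys and was not called (log2 difference 0.39 ± 0.26, edgeR adjusted p = 0.245), whereas Ldhb, the lactate dehydrogenase chain of oxidative tissues, lay at 9.41, 11.3 and 14 in livers and 749.5, 677 and 884 in kidneys (log2 difference -6.05 ± 0.30, edgeR adjusted p = 5.08e-06). By FPKM the order of this pair also turned over, with Ldha ahead in all 3 livers and Ldhb in all 3 kidneys. Carriers that turned over as well included the aquaporins, with Aqp9, the glycerol channel of hepatocytes, at 398, 309.9 and 432 in livers and 0.464, 0.231 and 0.986 in kidneys (log2 difference 9.36 ± 0.56, edgeR adjusted p = 1.02e-05) against Aqp2. Cadherins did too, with Cdh2, N-cadherin, at 174, 156 and 124 in livers and 6.68, 5.13 and 4.93 in kidneys (log2 difference 4.76 ± 0.23, edgeR adjusted p = 4.82e-06) and Cdh16, the kidney-specific cadherin, at 2.01, 2.63 and 2.06 in livers and 575, 569 and 652 in kidneys (log2 difference -8.06 ± 0.28, edgeR adjusted p = 2.15e-06). In 3 pairs both genes were higher in liver, among them Slc38a4 and Slc38a3.

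Markers of cells other than hepatocytes and tubule cells also differed. Of 19 Kupffer cell and macrophage genes 17 were higher in liver, against 23.7% of all genes tested. Clec4f, a lectin specific to Kupffer cells in mice, lay at 94.6, 121 and 212 in livers and 0.309, 0.0924 and 0.211 in kidneys (log2 difference 9.37 ± 0.51, edgeR adjusted p = 7.09e-06). Cx3cr1, a receptor of other tissue macrophages, was the one member higher in kidney, with means of 0.969 in liver and 3.73 in kidney. Endothelial genes divided, with 9 of 23 higher in liver and 8 higher in kidney, against 23.7% and 26.8% of all genes tested. With library totals alone these counts were 8 and 14. Without liver 2, 5 were higher in kidney. Stab2, a scavenger receptor of liver sinusoids, lay at 65.5, 80.8 and 83.5 in livers and 1.82, 2.54 and 8.73 in kidneys (log2 difference 4.12 ± 0.60, edgeR adjusted p = 0.00117). Clec4g, a lectin of the same cells, lay at 47.1, 69 and 99.3 in livers and 0.116, 0.0924 and 0.141 in kidneys (log2 difference 9.17 ± 0.42, edgeR adjusted p = 4.13e-06). Emcn, endomucin, lay at 6.25, 5.03 and 7.05 in livers and 58, 46.7 and 78.6 in kidneys (log2 difference -3.32 ± 0.25, edgeR adjusted p = 2.82e-05). Members called higher in kidney included Flt1, Pecam1 and Tek.

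Stellate cell and fibroblast genes were higher in liver in 10 of 19 cases and higher in kidney in 4, against 23.7% and 26.8% of all genes tested. With library totals alone these counts were 7 and 8, and the median went from 1.11 to 0.16. Reln, which marks hepatic stellate cells, lay at 59.6, 54.7 and 53.7 in livers and 9.5, 8.08 and 12.9 in kidneys (log2 difference 2.46 ± 0.20, edgeR adjusted p = 4.38e-05). Smooth muscle genes were higher in kidney in 7 of 8. Myh11, the smooth muscle myosin, lay at 2.47, 3.98 and 3.6 in livers and 13.7, 20.2 and 25.3 in kidneys (log2 difference -2.56 ± 0.30, edgeR adjusted p = 0.000279). Of 9 cholangiocyte genes 8 were higher in kidney, whose collecting ducts are known to express many of them. Epcam lay at 1.16, 1.2 and 2.87 in livers and 51.9, 46.8 and 94.9 in kidneys (log2 difference -5.20 ± 0.46, edgeR adjusted p = 7.59e-05). Hbb-bs, a beta globin, lay at 132, 156 and 142 in livers and 309.6, 198 and 73.5 in kidneys and was not called over 6 libraries (log2 difference -0.44 ± 0.45, edgeR adjusted p = 0.457). Without liver 3 and kidney 3 it was called higher in kidney (log2 difference -0.80, edgeR adjusted p = 0.0277). It is uncertain because of its near-identical neighbour Hbb-bt. Of 8 red blood cell genes 1 was higher in liver and 3 higher in kidney. The one higher in liver was Alas2, at 163, 162 and 17.6 in livers and 8.07, 5.67 and 1.67 in kidneys (log2 difference 4.47 ± 1.01, edgeR adjusted p = 0.0117). Its call was lost without kidney 2 or kidney 3 (edgeR adjusted p up to 0.0692). Without liver 3 and kidney 3 it was called (log2 difference 4.57, edgeR adjusted p = 5.84e-06). Of 13 lymphocyte genes 3 were higher in liver and 0 higher in kidney, but 0 and 3 with library totals alone. Ighm (log2 difference 1.32, edgeR adjusted p = 0.0071) and Cd4 (1.75, edgeR adjusted p = 0.0232) were among those higher in liver. Both calls were lost with library totals alone. Igkc and Jchain, genes of antibody-secreting cells, were not called. Both were highest in kidney 2, where Igkc stood at 103 against 5.42 to 20.6 in the 5 other libraries. Of the lists for neighbouring tissues, adrenal cortex had 3, adipocytes 3 and exocrine pancreas 1 gene that passed the filter.

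Genes restricted to one organ were defined as called, at a mean of at least 10 in that organ and at no more than 1 in every library of the other. There were 160 in liver and 264 in kidney, and 207 and 284 without liver 3 and kidney 3. Asgr1, the hepatocyte receptor for desialylated glycoproteins, lay at 392, 413 and 541 in livers and 0.502, 0.277 and 0.88 in kidneys (log2 difference 9.62 ± 0.49, edgeR adjusted p = 5.59e-06). Cd5l, a macrophage-secreted protein, lay at 95.5, 103 and 182 in livers and 0.27, 0.0924 and 0.458 in kidneys (log2 difference 8.77 ± 0.52, edgeR adjusted p = 1.02e-05). Both liver genes stayed below 1 in each kidney by the definition. Car12, a membrane carbonic anhydrase, lay at 0.694, 0.751 and 0.661 in livers and 179.9, 224 and 165 in kidneys (log2 difference -8.06 ± 0.25, edgeR adjusted p = 2.15e-06). Slc1a1, a glutamate carrier of the tubule, lay at 0.309, 0.676 and 0.882 in livers and 236, 244 and 155 in kidneys (log2 difference -8.39 ± 0.42, edgeR adjusted p = 5.08e-06). The ceiling decides these numbers, because at 5 normalised CPM they were 422 and 652 and at 0.2 they were 41 and 49. The most abundant organ genes are not among them, as Alb or Kap exceeded 1 in all libraries of the other organ. Of the promoters in the RefSeq table for 116 liver-restricted, 197 kidney-restricted and 3086 like-level genes, 3.45%, 0.508% and 0.194% held CAAAGTCCA, against 0.477% of all promoters, and the first of these shares is 4 promoters. TATAAA was held by 19.8%, 10.7% and 5.41%, against 14.2% of all promoters, and TTGCGCAA by 1, 0 and 11 promoters.

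Liver 3 and kidney 3, the libraries near 0 in Y-linked counts, stood apart in several genes known to differ between the sexes. Of 25 genes with male bias in mouse liver 20 were called higher in liver than in kidney, against 23.7% of all genes tested. The sum of these 25 genes ranged from 16897 to 279779 normalised CPM among livers. The calls numbered 11 without kidney 3 and 12 without kidney 2, and 20 without liver 3 and kidney 3 together. Mup7, a major urinary protein, lay at 64746, 72478 and 253 in livers and 61.4, 49.9 and 129.9 in kidneys (log2 difference 9.15 ± 1.99, edgeR adjusted p = 0.00773). Its call was lost without kidney 2 or kidney 3 (edgeR adjusted p up to 0.0807) and with the replicate number as a block (edgeR adjusted p = 0.0842). Without liver 3 and kidney 3 it was called (log2 difference 10.28, edgeR adjusted p = 1.53e-06). A1bg, a gene with female bias in mouse liver, lay at 1.31, 1.28 and 4347 in livers and 0.734, 1.2 and 1.02 in kidneys and was not called (log2 difference 10.52 ± 3.66, edgeR adjusted p = 0.0549). Without liver 3 and kidney 3 its difference was 0.44, edgeR adjusted p = 0.45. Cyp3a41a, a female-biased P450 with a near-identical copy, lay at 3.37, 8.73 and 10388 in livers and 2.69, 2.04 and 2.38 in kidneys (log2 difference 10.51 ± 3.51, edgeR adjusted p = 0.048), and its difference was 1.36 without liver 3 and kidney 3 (edgeR adjusted p = 0.0504). With the replicate number as a block its edgeR adjusted p was 0.374. In kidney, Cyp4b1, Odc1, Kap and Acsm2 were lowest in kidney 3. Odc1, ornithine decarboxylase, lay at 83.5, 58.9 and 91 in livers and 2197, 2627 and 253 in kidneys (log2 difference -4.44 ± 0.83, edgeR adjusted p = 0.00346). Without liver 3 and kidney 3 the difference of Odc1 was -5.06, edgeR adjusted p = 1.45e-05, and that of Cyp4b1 was -6.86, edgeR adjusted p = 1.88e-06. That of Kap was -8.09, edgeR adjusted p = 1.53e-06, and that of Acsm2 was -7.69, edgeR adjusted p = 4.25e-06. Hao2, a hydroxy acid oxidase, lay at 1.39, 2.33 and 331 in livers and 242, 181 and 953 in kidneys and was not called (log2 difference -2.04 ± 1.97, edgeR adjusted p = 0.43), but was called without liver 3 and kidney 3 (log2 difference -6.81, edgeR adjusted p = 4.89e-06) and with the replicate number as a block (edgeR adjusted p = 0.0439). The labels give no sex, so sex and library cannot be told apart.

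Abundant transcripts of each organ were also found at a low share in libraries of the other. For 50 abundant liver genes that were at least 100-fold higher in liver, the median level in kidney was 0.223%, 0.201% and 0.580% of the mean liver level in kidneys 1 to 3, as plain CPM of library totals. The mean of these was 0.335%, and 0.215% without kidney 3. For 50 kidney genes chosen in the same way the median in livers 1 to 3 was 0.232%, 0.251% and 0.226%. Kidney 3 thus stood apart from the 5 other fresh libraries. The rule of at least 100-fold caps the mean share over the fresh libraries, so the low level is in part set by the choice of genes. In the vitrified group the livers gave 0.172% to 0.206% and 2 kidneys 0.185% and 0.244%, but kidneys 3 and 4 only 0.00355% and 0.00374%. Mup3 had 507, 389 and 1194 estimated counts in the fresh kidneys, 396 and 405 in vitrified kidneys 1 and 2, and 1 in each of vitrified kidneys 3 and 4. A1bg, with 59169 counts in liver 3 and at most 21 in any other liver, had 19, 26 and 29 counts in the fresh kidneys and 0 in vitrified kidneys 3 and 4. The A1bg counts of the fresh kidneys lay close together, while those of the livers did not. Cyp3a41a gave 69.8, 44.1 and 67.7 counts in the fresh kidneys and 0 in the same vitrified kidneys. Kap had 951 to 1041 counts in the fresh livers and 178209 to 520779 in the fresh kidneys. Apoa1 had 206, 136 and 581 counts in the fresh kidneys, against 4 and 1 in vitrified kidneys 3 and 4. Differences near 9 for abundant liver genes rest on such kidney counts. Likewise, the differences of -8.06 for Slc34a1 and -7.79 for Umod rest on 136 to 153.6 and 137 to 154 counts in the fresh livers. The size of large differences is thus uncertain in both directions. Whether RNA was carried between samples or libraries, or read by error, was not tested.

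**Figure D5:**
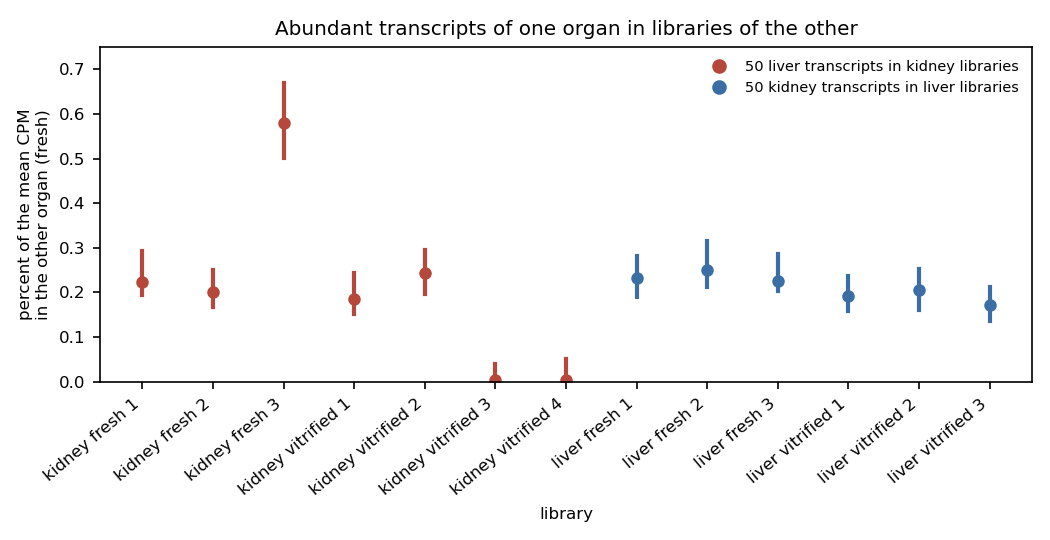
Level of 50 liver transcripts in each kidney library (red) and of 50 kidney transcripts in each liver library (blue), as a percentage of the mean CPM in the fresh libraries of the organ of origin. Points are medians over the 50 genes and bars span the quartiles. Fresh kidney 3 stands at 0.580%, and vitrified kidneys 3 and 4 lie near 0.

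The same contrast in mice from vitrified oocytes used none of these 6 libraries. Of the 6933 called genes, 6874 were tested there, 6830 had the same direction, 5486 (79.8%) were called in it and 0 were called in the opposite one. Of the 160 liver-restricted genes 159 were tested in the vitrified organs and all 159 were called higher in liver. Of the 264 kidney-restricted genes 263 were called higher in kidney. In 1 edgeR model over all 13 libraries, 0 of 14441 genes (0%) were called for an organ difference that differed by oocyte origin. At an unadjusted edgeR p under 0.05 there were 275 genes, and DESeq2 gave 0 calls. With 3 or 4 libraries a group, the lack of calls does not show that the organ differences were alike. Among the 6 genes with the smallest p was Adh4, a retinol and alcohol dehydrogenase, which lay at 121, 111 and 133 in livers and 0.116, 0.323 and 0.246 in kidneys in the fresh group. Its difference was 9.04 in fresh and 12.00 in vitrified organs, and that of Plcl1, a phospholipase C-related protein, was -4.25 and -7.12. Neither difference of differences passed the adjustment. Adh4 was near 0 in the fresh kidneys, where abundant liver transcripts stood at 0.201% to 0.580% of their liver level. In vitrified kidneys 3 and 4 that share was 0.00355% and 0.00374%. Whether this bears on the difference of Adh4 was not tested.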

How the data were processed

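RNA from 13 libraries was sequenced, and the 6 libraries of the fresh group were analysed, with the 7 vitrified ones as a separate contrast. The authors deposited 1 table with estimated counts and FPKM for each gene and library. The build was GRCm39 and the tools named, without a role, were DESeq2, StringTie 1.3.1, HISAT2 2.4 and Bowtie2 2.2.8, per the submitters' processing notes. Strand use and settings of the counting were not given in the sources used here, so overlapping or antisense genes may share reads. Estimated counts, of which 7.63% to 9.14% per library were not whole, were rounded.

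The fit used edgeR 4.0.16 in R 4.3.3 (TMM, default filter, robust quasi-likelihood test, Benjamini-Hochberg adjustment over all tested genes, calls under 0.05, no covariates). SE was derived from the test statistic. The steps were tested on simulated data. Limma 3.58.1 and DESeq2 1.42.0 served as alternatives. Libraries of a group differed beyond sampling noise in each pair (chi-square of 21.0 or more per gene). Intervals and counts cover the spread among 3 samples a group and counting error only.

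For same-numbered livers and kidneys, deviations from the group means correlated at 0.188, 0.184 and 0.207 over 8492 genes, against -0.189 to 0.092 for unequal numbers. Equal numbers thus correlated weakly, and more than unequal ones. The labels give no pairing, and deviations from a shared group mean are not independent of each other. Liver 3 and kidney 3 were also both low in Y-linked counts. Whether equal numbers mark the same mouse was not tested. The main fit did not use the numbers, and the fit with the number as a block was an alternative.

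Members and lists were chosen with earlier results of these data known. Genes were named by rule: the 4 markers, 12 non-overlapping called genes per direction with the largest difference of mean CPM, 4 members per list plus up to 5 called against it, all pairs, Y-linked genes, 8 like-level genes, 6 genes with the smallest interaction p and 6 restricted genes per organ. Other list members named as exceptions or examples were chosen after their values were seen. Predicted genes were counted and not named. Some genes and pairs are not reported here, and such genes stay in the counts of lists. Genes whose transcripts share many words of 50 bases with another gene in GENCODE M21 are given as uncertain.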

Additional observations from a re-analysis of the deposited data

How the results depend on the processing

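Limits: with 3 samples a group, scaling decides the direction of moderate differences. Library totals alone gave 1300 genes higher in liver, 8810 higher in kidney, 444 kidney-restricted and 1754 like-level genes. Limma on the authors' FPKM, which are not rescaled between organs, gave 1138 and 7585 with a pseudocount of 1, and 1141 and 7580 with 0.1. An adjusted p under 0.01 left 2169 genes higher in liver, and a test against a 2-fold difference left 1425 and 2139. Restricted genes numbered 422 and 652 at a ceiling of 5 CPM, 41 and 49 at 0.2 CPM, and 253 in liver after the other organ's trace was subtracted. Like-level genes numbered 726 for an interval within -0.5 to 0.5 and 945 at 50 CPM or more. The kidney trace in livers was 0.295% over genes at least 30-fold higher. Leaving out 1 library at a time gave 2493 to 3107 genes higher in liver and 3170 to 3648 higher in kidney. It gave 150 to 208 and 257 to 309 restricted genes, and 3174 to 3723 like-level genes. Traces were 0.215% to 0.399% and 0.229% to 0.238%, and 0 genes were called for an interaction.

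Under library totals the difference turned for Hnf4a (-0.70), Nr3c2 (-0.093), Psma3 (-0.0067), Psma4 (-0.41), Psmb1 (-0.087), Rpl4 (-0.17), Rps2 (-0.29) and Rps6 (-0.15). In the FPKM fits, with pseudocounts of 1 and 0.1, it turned for Hnf4a (-0.72, -0.73), Ldha (-0.53, -0.53), Nr3c2 (-0.055, -0.053), Psma4 (-0.40, -0.40), Psmb1 (-0.10, -0.10), Rpl4 (-0.18, -0.18), Rps2 (-0.29, -0.29), Rps6 (-0.13, -0.13), Sord (-0.48, -0.49) and mt-Nd5 (-0.95, -0.96). These fits move the median of all genes by -0.96, -0.76 and -0.90, by construction.

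With the replicate number as a block, 3414 and 3801 genes were called and 3957 were at like levels. Of 201 called genes among the 237 named, 9 lost their call under the block and 25 when 1 library was left out. Cela1, Scd1, Hao2, Ddx3y, Kdm5d and Eif2s3y were called under the block and not in the fit without it. The block changed no other call of a named gene and no count by over 1.5 times. Cela1 was also called higher in liver without liver 3 and kidney 3 (log2 difference 1.20, edgeR adjusted p = 0.00507). DESeq2, its size factors in edgeR, limma-voom, other filters on low counts and 1 fit over 13 libraries left the counts within 1.5 times.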
